A study of Mus musculus with 12 samples.

Results

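Extracellular and lysosomal proteolysis was followed here through 72 genes of the serine protease, cathepsin and protease inhibitor families, out of 9984 genes measured on the arrays. The members were taken by gene symbol: serpins, cathepsins, Prss and Tmprss serine proteases, mast cell proteases, granzymes, kallikreins, cystatins and stefins, Spink inhibitors, carboxypeptidases A and dipeptidyl peptidases. Of 80 symbols that matched, Serpinb1a, Serping1, Mcpt8 and Cst7 were left out by the rule, as were 4 Cstf genes, which encode RNA cleavage factors. The symbol pattern uses no measured value, but the rule gives no reason for the 4 named exceptions, of which Mcpt8 and Serpinb1a passed the test both in Erg -/- MPP and between the controls. The counts of members that passed therefore describe the families without these genes. Of the 72 members, 10 had a mean over the 12 arrays above the array median and 62 did not. None of the 72 passed the limma test in any of the 4 comparisons made, where 0.02% (Erg +/- HSC), 0.0801% (Erg -/- MPP), 1.28% (control MPP against control HSC) and 0.02% (MPP effect against HSC effect) of all genes did.

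The series profiled sorted mouse bone marrow stem and progenitor cells that differ in Erg, an ETS family transcription factor needed by haematopoietic stem cells, with 4 groups of 3 arrays each. All mice were male, on C57Bl/6 for at least 6 generations, and the floxed allele carries loxP sites around exon 11 of Erg, which encodes the DNA-binding domain. Haematopoietic stem cells (HSC) were Lineage-, Sca-1+, c-kit+, CD150+ and CD48-, from Erg +/+ mice or from Erg +/- mice whose germline allele was removed by a general Cre deleter. Multipotential progenitors (MPP) were taken from Cre-free Erg fl/fl mice, the controls, or from Erg fl/fl mice with Mx1-Cre, called Erg -/- below. Mx1-Cre is switched on by interferon, so cells other than haematopoietic cells can also delete the allele. Both MPP groups, controls included, received 5 injections of polyinosinic-polycytidylic acid (pIpC), an inducer of interferon, with the sort 2 weeks later, counted from the first injection. The HSC groups have no such treatment in their labels. The labels call the Erg +/- HSC samples knockout, and the genotype is used here. For the MPP samples the sorting field gives CD150-, whereas the source name repeats the HSC gate. Whether the 3 samples of a group are separate animals is not in the labels. The tests therefore measure only how far samples spread, which may be technical.

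Serine proteases cut proteins through an activated serine, and in blood cells they are stored in granules or held at the cell surface. Cathepsins work mainly in lysosomes, by a cysteine, an aspartate or a serine. Serpins trap their target protease in an irreversible complex, cystatins and stefins block cysteine cathepsins reversibly, and Spink proteins block trypsin-like enzymes. In bone marrow, neutrophil and mast cell proteases are known for cleaving niche proteins, and their intracellular inhibitors for protecting the cells that make them.

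Values are log2 array signals, so a difference of 1 is a 2-fold ratio. The 12 array medians lay between 5.41 and 5.54 and their mean, 5.48, served as the dividing level between brighter and dim members. The interquartile range of the arrays was 2.83 to 2.99 in the HSC samples and 2.50 to 2.84 in the MPP samples. Marker levels describe the sorted populations: the mean log2 level of 6 measured HSC-associated genes of 14 listed was 8.79 to 9.17 in the HSC arrays and 6.09 to 6.75 in the MPP arrays. In control MPP against control HSC, 5 of the 6 were lower and 1 was higher by 0.53. The list was chosen with earlier results of these data known, so it is no independent check of the sort. The deleted gene itself was not analysed here. In bulk RNA, fewer cells of a type and less RNA per cell cannot be told apart.

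Only 13.9% of the members lay above the array median, against 58.1% of all genes. This share covers only the family genes that were measured. Cathepsins A, B, C, D, H, L, S and Z, among others, were not, so it does not describe the whole families. They were Cst3, Ctse, Ctso, Dpp3, Prss56, Serpini1, Serpinb8, Prss53, Prss41 and Prss57. A probe set's brightness also depends on its own probes, so the dividing level separates signals and does not rank genes. Prss57 at 5.62 and Prss41 at 5.72 were the nearest members above the level, and Klk6 at 5.44 and Prss44 at 5.38 the nearest below it. Member means ran from 1.78 for Serpinb3a, a clade B serpin, to 10.07 for Cst3. The member counts above the level were 1 of 2 cysteine cathepsins, 1 of 1 aspartic cathepsin, 4 of 17 Prss genes, 1 of 3 dipeptidyl peptidases, 1 of 12 clade B serpins, 1 of 3 serpins outside clades A and B, and 1 of 6 cystatins and stefins. None of the 5 leukocyte granule proteases, 8 kallikreins, 7 Spink genes, 2 Tmprss genes, 3 clade A serpins, 2 placental cathepsins and 1 carboxypeptidase A was above it.

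**Figure D1:**
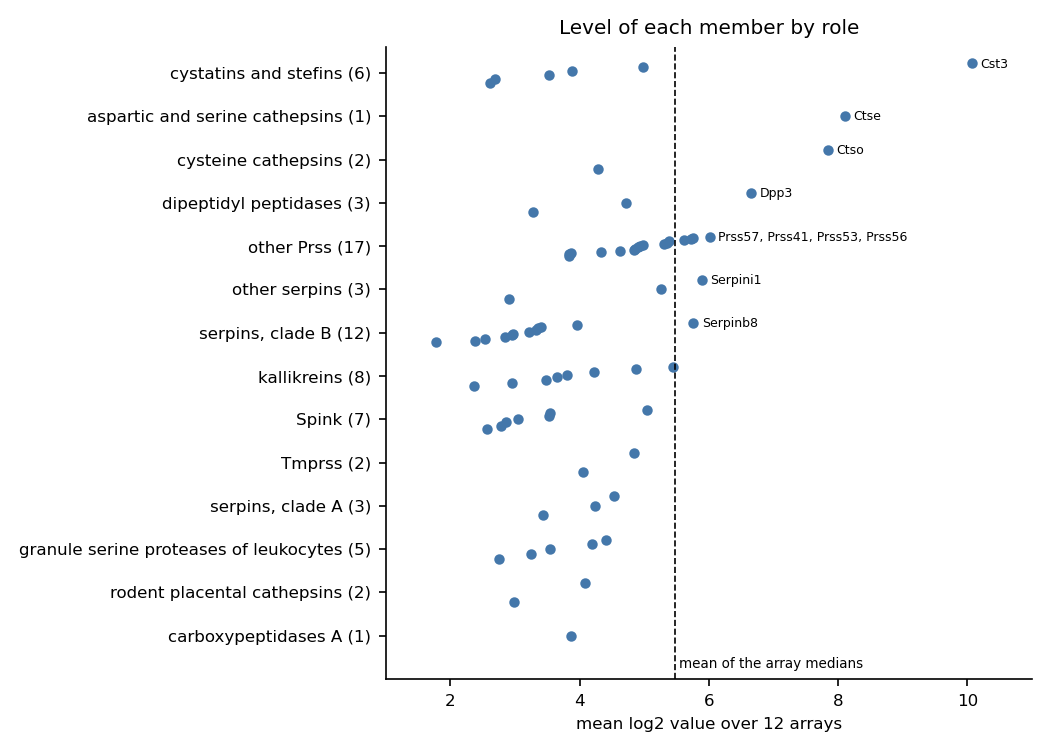
Mean log2 value over the 12 arrays (x axis) of each of the 72 members, 1 point a gene, in rows by role with the number of members in brackets; the dashed line is the mean of the array medians, 5.48. Points right of the line are the 10 named members, from Prss57 at 5.62 to Cst3 at 10.07, and the other 62 members lie left of it.

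Sequence upstream of the start is shown for some of the members whose values are followed array by array below, because Erg binds ETS motifs. They are the inhibitors Serpini1, Serpinb8 and Cst3 and the protease Ctso. Each run holds the 250 bases before a RefSeq gene start (build GRCm38.p6), written 5′ to 3′ on the gene's strand. A form of the ETS motif, GGAAGT, or its reverse complement ACTTCC is in capitals. Serpini1 lies at chr3:75557243-75557492 on the plus strand, Serpinb8 at chr1:107589756-107590005 on the plus strand, Cst3 at chr2:148875513-148875762 on the minus strand and Ctso at chr3:81932351-81932600 on the plus strand.
Serpini1: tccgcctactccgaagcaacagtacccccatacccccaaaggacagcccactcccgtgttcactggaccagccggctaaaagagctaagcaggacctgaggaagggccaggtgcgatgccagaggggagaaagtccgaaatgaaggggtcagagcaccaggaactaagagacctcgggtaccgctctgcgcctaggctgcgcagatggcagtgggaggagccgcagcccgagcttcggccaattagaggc
Serpinb8: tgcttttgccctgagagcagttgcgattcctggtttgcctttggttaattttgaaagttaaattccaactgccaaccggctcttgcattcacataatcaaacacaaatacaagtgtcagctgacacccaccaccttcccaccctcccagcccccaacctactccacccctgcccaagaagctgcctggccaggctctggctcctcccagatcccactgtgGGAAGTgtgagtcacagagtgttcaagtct
Cst3: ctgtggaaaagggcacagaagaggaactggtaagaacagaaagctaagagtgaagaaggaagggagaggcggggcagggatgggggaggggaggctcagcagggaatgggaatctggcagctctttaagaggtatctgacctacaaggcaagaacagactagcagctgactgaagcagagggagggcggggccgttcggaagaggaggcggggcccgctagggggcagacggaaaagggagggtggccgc
Ctso: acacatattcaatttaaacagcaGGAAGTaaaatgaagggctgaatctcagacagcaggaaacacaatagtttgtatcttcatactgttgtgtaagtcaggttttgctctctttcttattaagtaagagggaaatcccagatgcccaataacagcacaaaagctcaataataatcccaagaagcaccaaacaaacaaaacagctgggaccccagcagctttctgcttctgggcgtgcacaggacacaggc
The Serpinb8 window held 1 match, 30 bases before the start, and the Ctso window 1 match, 227 bases before it. The Serpini1 and Cst3 windows held no exact match, and neither did the Dpp3 windows, which are not printed. No window was available for Ctse or Prss57. Only this exact form and its reverse complement were searched, so other forms of ETS site were not counted. Over all 32851 windows of this length in the RefSeq table, 19.7% held the motif, and of 68 windows belonging to 59 members, 19 did, which is 27.9%. A TATA motif, TATAAA or TTTATA, stood in 17.6% of the member windows and 12.4% of all. The GATA motif AGATAA or TTATCT stood in 4.4% of the member windows and 10% of all. The median number of CG pairs per window was 3 for the members and 6 over the table, whereas the 9 windows of the brighter members had a median of 8. None of the 3 motifs contains another. These matches describe letters only, and binding was not measured.

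Among the cathepsins, Ctse had the widest spread of group means of any member. It encodes cathepsin E, an aspartic protease of endosomes that is abundant in some immune and red cell precursors. Its log2 values were 8.40, 8.08 and 8.33 in Erg +/+ HSC and 9.68, 8.48 and 8.28 in Erg +/- HSC. In MPP they were 7.58, 6.72 and 6.78 in Erg fl/fl and 7.69, 8.66 and 8.60 in Erg -/-. All 3 Erg -/- MPP arrays were above all 3 control MPP arrays, with the closest pair only 7.58 against 7.69, and the control MPP arrays were below all the HSC arrays. The difference of Erg -/- from Erg fl/fl was 1.29 (SE 0.372, 95% interval 0.48 to 2.10, a 2.45-fold ratio), with a limma p adjusted over all genes (Benjamini-Hochberg) of 0.657. Erg +/- HSC differed from Erg +/+ by 0.54 (interval -0.26 to 1.35), and by 0.11 without the array at 9.68. The MPP effect exceeded the HSC effect by 0.75 (interval -0.39 to 1.89), which did not pass the test. Between the controls, MPP minus HSC was -1.24 (interval -2.05 to -0.44, limma adjusted p = 0.105).

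Ctse is a gene of red cell precursors among others, so the erythroid markers are set beside it. The mean log2 level of 7 measured erythroid genes of 11 listed was 5.75 to 6.17 in Erg +/+ HSC, 6.76 to 7.01 in Erg +/- HSC, 6.07 to 6.60 in Erg fl/fl MPP and 6.48 to 7.20 in Erg -/- MPP. It was thus higher in every Erg +/- than in every Erg +/+ HSC array and overlapped between the MPP groups. All 7 lay above the array median, and their part in the Ctse values was not tested.

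Ctso, a lysosomal cysteine cathepsin, had values of 8.49, 7.04 and 8.19 in Erg +/+ HSC, 7.88, 7.69 and 8.51 in Erg +/- HSC, 7.88, 7.77 and 7.82 in Erg fl/fl MPP and 8.36, 7.83 and 6.62 in Erg -/- MPP. All 4 groups overlapped, and the control MPP arrays were the tightest. Its differences were 0.12 in HSC (interval -0.82 to 1.05), -0.22 in MPP (interval -1.16 to 0.72) and -0.09 between the controls (interval -1.02 to 0.85), so the arrays leave room for a change in either direction. Ctsk, the collagen-degrading cathepsin of osteoclasts, was dim at a mean of 4.29 with arrays from 3.64 to 5.09. The placental cathepsins Cts7 and Cts8 were dim at 4.08 and 2.99. These genes are expressed in rodent placenta, and their differences by Erg genotype lay between 0.01 and 0.09.

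The serine protease genes above the array median were Prss56, Prss53, Prss41 and Prss57. Prss57 encodes a neutrophil granule serine protease, and its values were 5.42, 4.73 and 6.40 in Erg +/+ HSC, 5.38, 5.30 and 5.47 in Erg +/- HSC, 6.15, 5.59 and 6.10 in Erg fl/fl MPP and 5.41, 5.35 and 6.10 in Erg -/- MPP. The Erg +/+ HSC arrays alone spanned the range of every other group. The Prss57 difference was -0.13 in HSC (interval -0.89 to 0.63) and -0.33 in MPP (interval -1.09 to 0.43). The 5 measured neutrophil granule markers of 16 listed had a mean log2 level of 5.55 to 5.87 in Erg +/+ HSC, 5.61 to 5.97 in Erg +/- HSC, 5.36 to 5.43 in Erg fl/fl MPP and 5.40 to 5.62 in Erg -/- MPP, and their part in the Prss57 values was not tested.

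Prss56, a secreted protease known for its role in eye growth, had values of 5.73, 6.26 and 5.75 in Erg +/+ HSC and 5.88, 5.87 and 6.24 in Erg +/- HSC. In MPP its values were 5.62, 6.12 and 6.06 in Erg fl/fl and 6.43, 6.12 and 6.09 in Erg -/-. The groups overlapped in both populations, and the differences were 0.08 in HSC and 0.28 in MPP. Prss41, a testis serine protease, was at 5.46, 5.22 and 5.89 in Erg +/+ HSC, 5.34, 5.60 and 5.65 in Erg +/- HSC, 5.69, 6.04 and 6.02 in Erg fl/fl MPP and 5.87, 6.02 and 5.81 in Erg -/- MPP. Its genotype differences were 0.00 in HSC (interval -0.42 to 0.42) and -0.01 in MPP (interval -0.43 to 0.41), and the controls differed by 0.39 (interval -0.03 to 0.81). Prss53, a polyserase with tandem protease domains, ranged from 5.32 to 6.09 over all arrays, and its genotype differences were 0.03 in HSC and 0.03 in MPP.

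**Figure D2:**
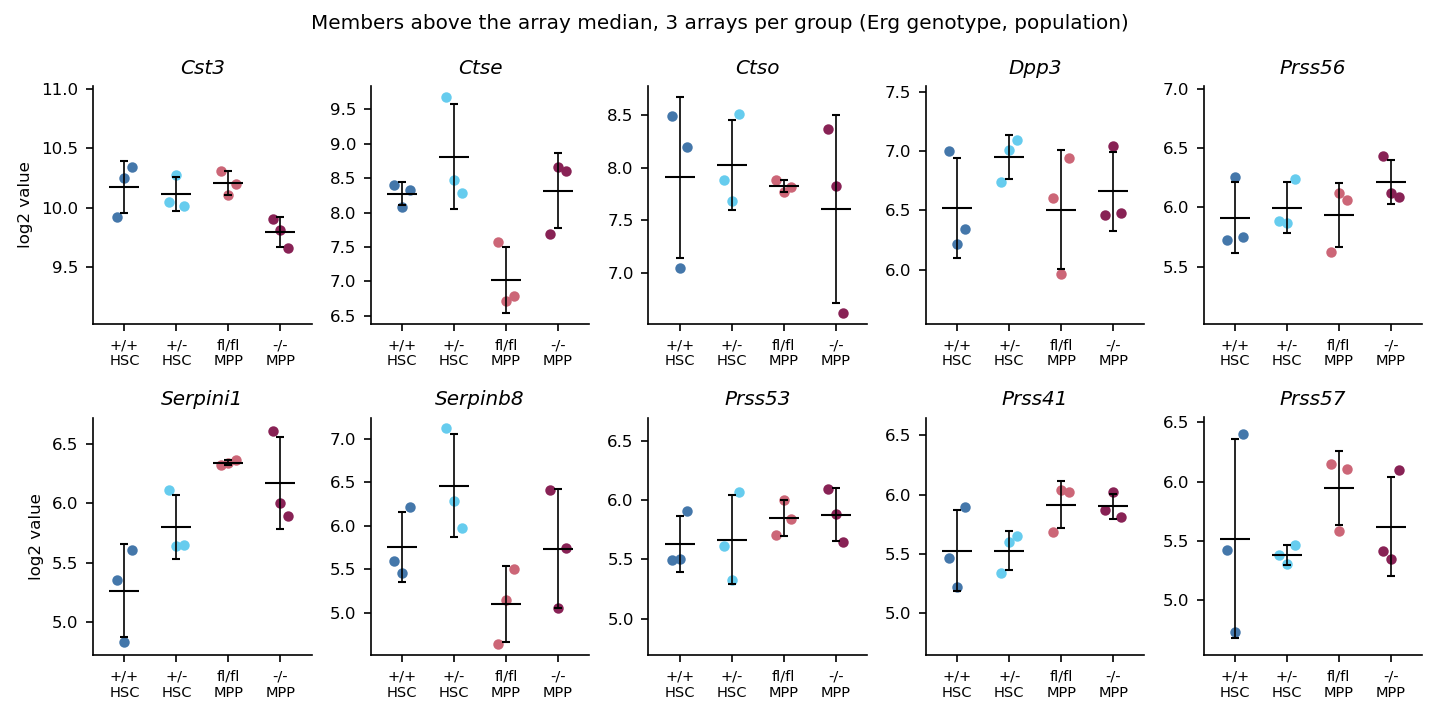
Log2 values (y axis, each panel with its own range) of the 10 members above the array median, 1 point an array, with the mean and SD of the 3 arrays of each group as bars. In the Ctse panel the control MPP arrays, 6.72 to 7.58, lie below every other array, and in the Serpini1 panel the Erg +/+ HSC arrays, 4.83 to 5.61, lie below every other group.

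The leukocyte granule proteases that were measured and kept by the rule were dim throughout. Elane, Prtn3, Ctsg, Gzma and Gzmb, which the symbol pattern also takes, were not among the genes measured, so their levels are unknown here. Granzymes C, D, E and G, made by activated cytotoxic lymphocytes, had means between 3.25 and 4.41, and Mcpt1, a chymase of mucosal mast cells, had a mean of 2.76; it is described after its values were seen. The Mcpt1 values were 2.47, 2.38 and 2.50 in Erg +/+ HSC, 2.77, 3.00 and 2.68 in Erg +/- HSC, 2.69, 2.74 and 2.70 in Erg fl/fl MPP and 3.12, 2.80 and 3.27 in Erg -/- MPP. Both Erg-deficient groups lay above their controls without overlap, but at a signal this far under the array median, and neither difference passed the test (0.37 in HSC, limma adjusted p = 0.789, and 0.35 in MPP, limma adjusted p = 0.998). Gzmc was at 4.01 ± 0.39 (SD, n = 3) in Erg fl/fl MPP and 3.25 ± 0.29 (SD, n = 3) in Erg +/+ HSC, a difference of 0.76 with a limma adjusted p of 0.149. Neighbouring granzyme genes are near-identical copies, and cross-hybridisation between their probe sets was not tested.

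The left-out genes of the same families are given once for comparison. Mcpt8, a basophil protease, was 4.34 to 4.41 in Erg +/+ HSC, 4.24 to 4.54 in Erg +/- HSC, 7.21 to 9.16 in Erg fl/fl MPP and 4.70 to 5.26 in Erg -/- MPP, and fell by 3.54 in Erg -/- MPP (limma adjusted p = 0.0029). Control MPP exceeded control HSC by 4.13 (limma adjusted p = 0.000242). Serpinb1a, an inhibitor of neutrophil elastase, was 5.91 to 7.17 in Erg +/+ HSC, 6.13 to 7.52 in Erg +/- HSC, 8.56 to 9.17 in Erg fl/fl MPP and 5.92 to 6.82 in Erg -/- MPP, and fell by 2.53 in Erg -/- MPP (limma adjusted p = 0.0274). Control MPP exceeded control HSC by 2.46 (limma adjusted p = 0.0106). Cst7, a leukocyte cystatin, differed by -1.65 in MPP (limma adjusted p = 0.520). Serping1, the C1 inhibitor, was at 7.21, 5.36 and 5.09 in Erg +/+ HSC and 3.93, 4.56 and 3.98 in Erg +/- HSC, a difference of -1.73 (limma adjusted p = 0.522) in which the first Erg +/+ array lay above all the others. The 6 measured endothelial and stromal markers of 15 listed had a mean log2 level of 6.05 to 6.64 in Erg +/+ HSC and 5.34 to 5.47 in Erg +/- HSC, and their part in the Serping1 values was not tested. The 5 measured mast cell and basophil markers of 9 listed had a mean log2 level of 4.58 to 4.75 in Erg +/+ HSC, 4.78 to 4.92 in Erg +/- HSC, 4.89 to 5.14 in Erg fl/fl MPP and 4.84 to 4.88 in Erg -/- MPP. Only 1 of them, Il3ra, was above the array median, and their part in the Mcpt values was not tested.

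Kallikreins, secreted trypsin- and chymotrypsin-like proteases of glands and skin, were dim in all 8 cases, with means from 2.36 for Klk1b16 to 5.44 for Klk6. Their genotype differences ran from -0.21 to 0.50 in HSC and from -0.27 to 0.16 in MPP. The highest of these, 0.50, belonged to Klk1b7-ps, named for that after its values were seen and the only member annotated as a pseudogene, whose Erg +/+ HSC arrays spread from 2.37 to 4.05. Tmprss13 and Tmprss12, which belong to the membrane-anchored serine proteases, had means of 4.84 and 4.05. Their differences were 0.28 and 0.28 in HSC and 0.26 and 0.29 in MPP, none past the test. The dim Prss genes numbered 13, from Prss35 at 3.84 to Prss44 at 5.38.

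Prss48, a dim serine protease gene, had the smallest p of any member in the HSC comparison and is named for that after its values were seen. Its values were 4.69, 4.83 and 4.68 in Erg +/+ HSC, 5.33, 5.97 and 5.29 in Erg +/- HSC, 5.11, 5.34 and 5.55 in Erg fl/fl MPP and 5.29, 5.64 and 5.97 in Erg -/- MPP. Every Erg +/- array lay above every Erg +/+ array. The difference was 0.79 (SE 0.225, interval 0.31 to 1.28), with a limma adjusted p of 0.559.

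Dpp3, a cytosolic zinc-dependent dipeptidyl peptidase, was the only gene above the array median among the 3 with a Dpp symbol. Its values were 7.0, 6.22 and 6.34 in Erg +/+ HSC, 6.74, 7.01 and 7.09 in Erg +/- HSC, 6.61, 5.96 and 6.94 in Erg fl/fl MPP and 6.46, 7.04 and 6.48 in Erg -/- MPP. The groups overlapped, and the differences were 0.43 in HSC (interval -0.18 to 1.04) and 0.15 in MPP (interval -0.45 to 0.76). Dpp6 and Dpp10, grouped with it by symbol only, were dim at 4.72 and 3.28. They encode catalytically inactive proteins that act as potassium channel subunits in neurons. Dpp6 was the only member with 2 probe sets; the dimmer one had a mean of 3.76. Cpa5, a carboxypeptidase A, was dim at 3.87, with a genotype difference of 0.40 in MPP (limma adjusted p = 0.998) and no overlap between the MPP groups.

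Among the inhibitors, Cst3 was far above the array median on every array. It encodes cystatin C, a secreted inhibitor of cysteine cathepsins made by most cells. Its values were 9.92, 10.25 and 10.34 in Erg +/+ HSC, 10.05, 10.28 and 10.02 in Erg +/- HSC, 10.31, 10.11 and 10.20 in Erg fl/fl MPP and 9.91, 9.81 and 9.66 in Erg -/- MPP. The 3 Erg -/- MPP arrays were the 3 lowest of all 12. The MPP difference was -0.41 (SE 0.164, interval -0.77 to -0.06, a ratio of 0.752), with a limma adjusted p of 0.998. In HSC the difference was -0.06 (interval -0.41 to 0.30), and the MPP effect minus the HSC effect was -0.35 (interval -0.86 to 0.15).

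Serpini1 encodes neuroserpin, an inhibitor of tissue plasminogen activator known best from neurons. Its values were 5.35, 4.83 and 5.61 in Erg +/+ HSC and 6.12, 5.64 and 5.65 in Erg +/- HSC. In MPP they were 6.32, 6.34 and 6.36 in Erg fl/fl and 6.61, 6.00 and 5.90 in Erg -/-. The Erg +/+ HSC arrays were the lowest, below both the Erg +/- HSC and the control MPP arrays without overlap, although 5.61 and 5.64 nearly met. In HSC, Erg +/- minus Erg +/+ was 0.54 (SE 0.240, interval 0.02 to 1.06), with a limma adjusted p of 0.789. The difference was 0.32 without Erg +/+ HSC replicate 2. In MPP the difference was -0.17 (interval -0.69 to 0.35). Between the controls, MPP minus HSC was 1.08 (interval 0.55 to 1.60, a 2.11-fold ratio), with a limma adjusted p of 0.0507, the smallest of any member in any comparison and just outside the threshold of 0.05.

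Serpinb8, an intracellular clade B serpin that inhibits furin and trypsin-like proteases, had values of 5.59, 5.46 and 6.22 in Erg +/+ HSC and 7.12, 6.29 and 5.97 in Erg +/- HSC. Its MPP values were 4.63, 5.14 and 5.51 in Erg fl/fl and 6.41, 5.05 and 5.75 in Erg -/-. Group means were 5.76 in Erg +/+ HSC, 6.46 in Erg +/- HSC, 5.09 in Erg fl/fl MPP and 5.74 in Erg -/- MPP, and the arrays overlapped in both populations. The differences were 0.71 in HSC (interval -0.11 to 1.53, limma adjusted p = 0.851) and 0.64 in MPP (interval -0.18 to 1.46, limma adjusted p = 0.998). They were 0.38 without Erg +/- HSC replicate 1 and 0.31 without Erg -/- MPP replicate 1. The 2 effects differed by -0.06 (interval -1.22 to 1.10), an interval too wide to call them alike.

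**Figure D3:**
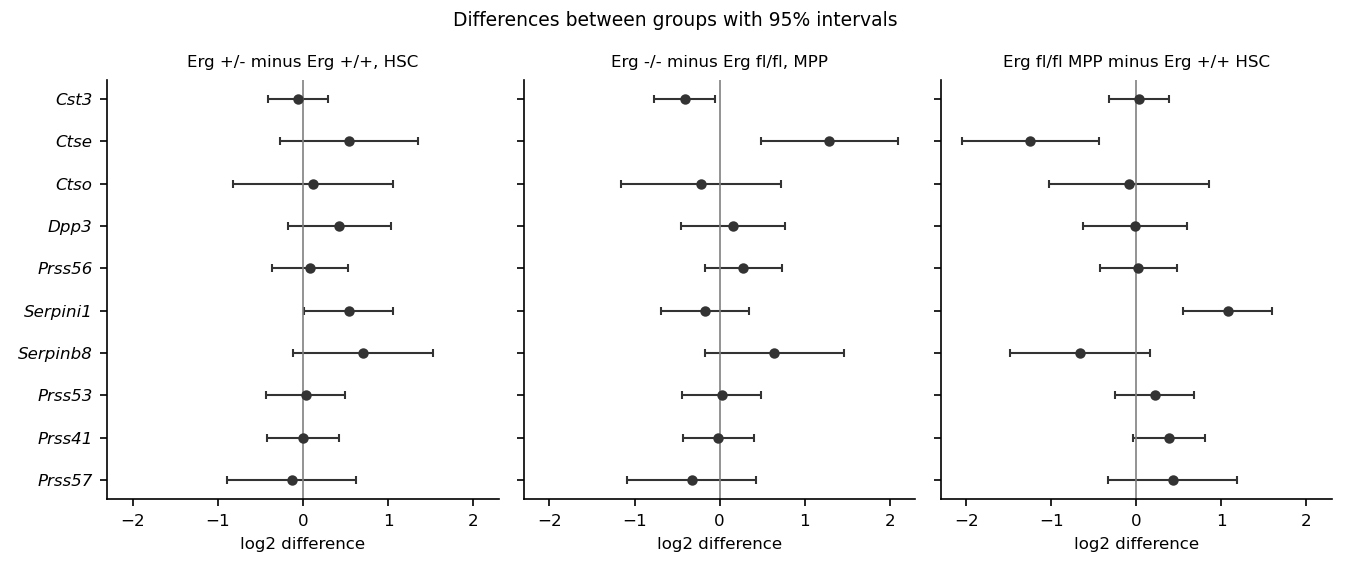
Log2 differences (x axis) of the 10 members above the array median with 95% limma intervals, for Erg +/- minus Erg +/+ in HSC, Erg -/- minus Erg fl/fl in MPP, and control MPP minus control HSC. Intervals that leave out 0 are those of Serpini1 in HSC, of Ctse and Cst3 in MPP, and of Ctse and Serpini1 between the controls; none passed the test after adjustment over all genes.

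The other serpins were dim. Serpinh1, the collagen chaperone HSP47 and no protease inhibitor, had a mean of 5.25 and a range of 4.84 to 5.57. Serpini2 had a mean of 2.91. The 11 dim clade B serpins, mostly intracellular inhibitors of granule and lysosomal proteases, ran up to 3.96 for Serpinb6c, and the 3 clade A serpins, relatives of secreted liver inhibitors, from 3.44 for Serpina1c to 4.53 for Serpina12. Clade B and Spink genes lie in tandem with others of their kind: 21 members had another member as an immediate neighbour, in 13 adjacent pairs that also took in kallikreins, granzymes and the placental cathepsins. Spink genes had means from 2.58 for Spink11 to 5.04 for Spink2, and their genotype differences lay between -0.13 and 0.17 in HSC and between -0.20 and 0.22 in MPP.

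Stfa2, a stefin of myeloid cells that inhibits cysteine cathepsins, varied most between arrays of the same group. Its values were 3.06, 3.38 and 2.86 in Erg +/+ HSC and 3.02, 3.20 and 3.50 in Erg +/- HSC. In MPP they were 5.80, 4.28 and 3.24 in Erg fl/fl and 6.64, 4.04 and 3.55 in Erg -/-. Replicate 1 of both MPP groups was far above every HSC array and replicate 3 close to them. The genotype difference in MPP, 0.31, was smaller than the within-group SD of 1.29 in Erg fl/fl and 1.66 in Erg -/-. Cstad, at a mean of 4.98, matched the cystatin symbols by its letters but is a gene of T cell activation and no cystatin.

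The first comparison, Erg +/- against Erg +/+ HSC, asks what loss of 1 allele does in stem cells. None of the 72 members passed the limma test, where 0.02% of all genes did (2 genes). At an unadjusted p under 0.05, 3 members were higher and 0 lower (Serpini1, Prss48 and Mcpt1), which is 4.2% of the members against 6.32% of all genes (2.73% higher and 3.59% lower). The groups did not overlap for 11 members, all higher in Erg +/-, against 6.06% of all genes higher and 4.38% lower. Those 11 were Cst13, Csta1, Dpp10, Mcpt1, Prss48, Prss50, Serpinb7, Serpini1, Serpini2, Spink11 and Tmprss13, and all but Serpini1 were dim. Without overlap, 10 of the 62 dim members were thus higher and 0 lower, beside 305 higher and 129 lower of all 4181 dim genes. The median member difference was 0.07, beside 0.02 over all genes and 0.05 over all dim genes. After the arrays were quantile normalised again, the medians were 0.03 for the members and 0.01 for all genes. The 10 brighter members had a median of 0.10, with 8 of 10 above 0 (7 of 10 after quantile normalisation was repeated), beside a median of -0.007 and 49.1% above 0 for all genes above the array median.

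The second comparison, Erg -/- against Erg fl/fl MPP, asks the same for loss of both alleles in progenitors. None of the members passed the limma test, where 0.0801% of all genes did (8 genes, all lower). At an unadjusted p under 0.05, Ctse was higher and Cst3 lower, 2.8% of the members against 4.79% of all genes (1.21% higher and 3.58% lower). The groups did not overlap for 4 members higher (Cpa5, Ctse, Klk11 and Mcpt1) and 1 lower (Cst3), against 4.36% and 6.10% of all genes. Among the 62 dim members this held for 3 higher and 0 lower, beside 223 higher and 75 lower of all 4181 dim genes. The median difference was 0.02 over the members, -0.004 over all genes and 0.01 over the 10 brighter members. The difference between the MPP and the HSC effect, tested directly, was past the threshold in 0 members and in 0.02% of all genes, and no member had an unadjusted p under 0.05, against 3.88% of all genes. The effects differ in population, alleles lost, route of deletion and pIpC, which cannot be told apart.

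The third comparison sets the control MPP against the control HSC, which also differ in pIpC and in the floxed allele, so that population and treatment cannot be told apart. Again 0 members passed the limma test, against 1.28% of all genes, with Mcpt8 and Serpinb1a, which did pass, left out by the rule. At an unadjusted p under 0.05, 15 members were higher in MPP and 1, Ctse, lower, which is 22.2% of the members and 22.3% of all genes (14.4% higher and 7.91% lower). The groups did not overlap for 21 members higher and 1 lower, against 18.5% and 8.54% of all genes. Among the 62 dim members this held for 20 higher and 0 lower, beside 962 higher and 156 lower of all 4181 dim genes. Apart from Serpini1 and Ctse, given above, the smallest adjusted p-values belonged to 4 dim genes, named here after their values were seen. Dpp10 was at 2.76, 2.90 and 2.89 in Erg +/+ HSC and 3.22, 3.88 and 3.88 in Erg fl/fl MPP, a difference of 0.81 (limma adjusted p = 0.0618). Prss47 differed by 0.78 (limma adjusted p = 0.0864). Serpinb5, the non-inhibitory serpin maspin, was at 3.13, 2.86 and 2.95 in Erg +/+ HSC and 3.22, 4.21 and 3.89 in Erg fl/fl MPP, a difference of 0.79 (limma adjusted p = 0.0984). Prss12, neurotrypsin, differed by 0.57 (limma adjusted p = 0.108).

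These 4 genes were all higher in the MPP controls with no overlap, and control MPP replicate 1 was the nearest to the HSC arrays in each. Without that array all 4 passed the limma test: Dpp10 at 1.03 (adjusted p = 0.0179), Serpinb5 at 1.07 (adjusted p = 0.0234), Prss47 at 0.98 (adjusted p = 0.0434) and Prss12 at 0.74 (adjusted p = 0.0495). The genes were picked for small p, and leaving out the nearest array enlarges each difference by construction. The share of all genes that passed without that array was not counted. Serpini1 passed without Erg +/+ HSC replicate 3, where the difference was 1.25 (adjusted p = 0.0460). It also passed without Erg +/- HSC replicate 1 (adjusted p = 0.0491) or Erg -/- MPP replicate 1 (adjusted p = 0.0416), arrays of neither group compared.

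The dim members shared a shift between the populations with other dim genes. Of the 62, 57 were higher in control MPP than in control HSC, with a median difference of 0.31, where 77.7% of all 4181 dim genes were higher, with a median of 0.22. All genes together had a median of 0.12. Erg +/+ HSC was the lowest of the 4 groups for 37 dim members and Erg +/- HSC for 22, and Erg -/- MPP was the highest for 32 and Erg fl/fl MPP for 24. These counts use the deposited values. The same was not counted over all dim genes, so they are no result about the members. When the arrays were quantile normalised again, 40 of the 62 were higher, beside 2213 of all 4181 dim genes. The median fell to 0.14 for the dim members and 0.02 for all dim genes, and Cst3 and Dpp3 changed sign to -0.10 and 0.075. The interquartile ranges given above, narrower in the MPP arrays, move with this shift, and their part in it was not tested. The 10 brighter members were divided, 6 higher and 4 lower, with a median of 0.03.

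**Figure D4:**
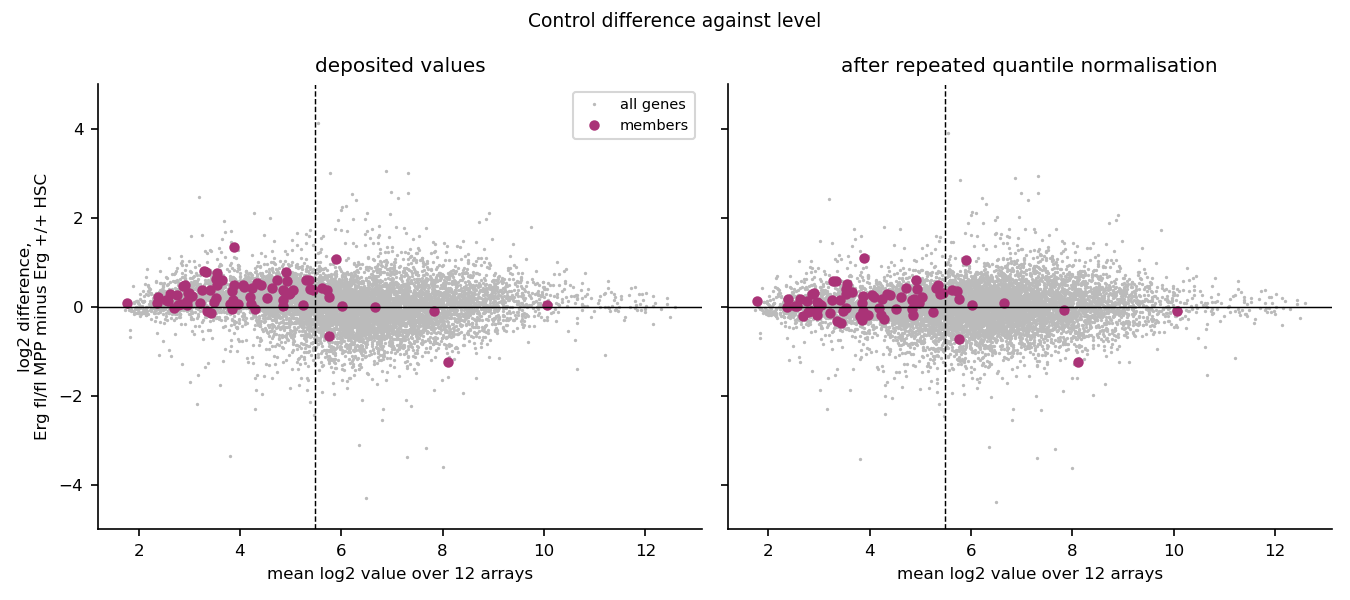
Log2 difference of Erg fl/fl MPP minus Erg +/+ HSC (y axis) against the mean log2 value over the 12 arrays (x axis) for 9984 genes in grey and the 72 members in colour, from the deposited values (left) and after quantile normalisation was repeated (right); the dashed line is the mean of the array medians. Left of the line, 57 of 62 members lie above 0 with the deposited values and 40 of 62 after renormalisation.

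Within groups, the median SD of a member over 3 arrays was 0.265, close to the 0.277 of all genes, and 7 members had an SD above 0.5. The 10 brighter members had a median SD of 0.343.

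Other genes of protein breakdown were read from the same fit as lists of related genes. No measured gene of these lists passed the limma test in any of the 4 comparisons. Measured were 17 of 43 listed other serine proteases of plasma and secretory pathways, 9 of 25 other protease inhibitors and 9 of 20 metalloproteinases. So were 9 of 18 other exopeptidases, 9 of 30 lysosomal hydrolases and membrane proteins, 4 of 15 genes of granule storage and release and 4 of 9 protease receptors. Cd63 stands in both the lysosomal and the granule list. Listed genes that were not measured are not covered. At an unadjusted p under 0.05, the 17 serine proteases held 2 higher and 1 lower in Erg +/- HSC, 0 in Erg -/- MPP and 4 higher and 1 lower in control MPP against HSC. As shares these were 17.6%, 0% and 29.4%, beside 6.32%, 4.79% and 22.3% of all genes, and no other list held more than 3 in a comparison. The smallest adjusted p among them was that of Sort1, a lysosomal sorting receptor, which differed by -1.03 between control MPP and HSC (limma adjusted p = 0.0561). Slpi, an inhibitor of leukocyte elastase, differed by 1.28 in Erg +/- HSC without overlap (limma adjusted p = 0.786). Cd63, a tetraspanin of lysosomes and granules, differed by -0.47 in Erg -/- MPP (limma adjusted p = 0.998). In control MPP against control HSC, 15 of the 17 other serine proteases and 63 of the 72 members were higher. The shares of all genes and of all dim genes were 62.3% and 77.7%, and the members' median was 0.28. Only 3 of the 17 and 10 of the 72 lay above the array median. After quantile normalisation was repeated, 12 of the 17 and 46 of the 72 were higher, and the members' median was 0.13. Beside these, 5235 of all 9984 genes and 2213 of all 4181 dim genes were then higher.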

How the data were processed

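Total RNA of sorted bone marrow cells, 20 ng a sample, was amplified and 2.5 µg of cDNA labelled for 1-colour Affymetrix arrays, per the labels' protocols. The values used are the deposited log2 signals of 18719 probe sets on 12 arrays. RMA and affy are named in the submitters' processing notes without a version. No source used here says if the normalisation took all 12 arrays at once. The scale was checked on the values, which ran from 0.939 to 13.4. No count or depth exists for arrays, and 3 arrays a group limit the precision.

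Platform annotation gave 10657 probe sets 1 gene symbol, 523 several and listed no symbol for 7539. The brightest probe set of each single symbol was kept, giving 9984 genes. Of the family's probe sets, 6 carried several symbols and were not used. All 72 member gene IDs matched the RefSeq table.

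A single limma 3.58.1 model (R 4.3.3; lmFit, contrasts.fit, eBayes) with 4 group means was fitted to all 9984 genes, with 8 residual and 4.35 prior degrees of freedom. Tests were two-sided, p-values were adjusted by Benjamini-Hochberg over all genes, and the threshold was 0.05. Adjusted p-values and 95% intervals of members were read from this model. A member counted as brighter where its mean over 12 arrays exceeded the mean of the array medians.

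The members and lists were chosen with earlier results of these data known. The text names members that passed, the 5 brighter members of smallest p per comparison and direction, and the 3 of highest mean per role; others are marked as chosen after their values were seen or given to complete a count. Alternatives were the replicate block, fits on the compared arrays, filters on dim genes, other probe set rules, repeated quantile normalisation, median centring, other variance settings, array weights and leaving out each array. A fit without both arrays of lowest weight was added after seeing the data.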

Additional observations from a re-analysis of the deposited data

Results flagged for a closer look

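Neither gene singled out here is a protease or an inhibitor; both come from the marker lists read beside them. For Igll1, the surrogate light chain gene of early B cells, the effect of Erg loss in MPP minus that in HSC was -2.03 on the log2 scale (limma, Benjamini-Hochberg adjusted p = 0.0157), with a difference of -1.88 in MPP. For Ifitm1, an interferon-induced membrane protein gene of the HSC-associated list, it was -1.75 (limma, Benjamini-Hochberg adjusted p = 0.0157), with a difference of -1.66 in MPP. Both were noted because the difference between the effects itself passed the test.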

How the results depend on the processing

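No member passed in Erg +/- HSC, Erg -/- MPP or the difference of the 2 effects under any alternative run. In control MPP against control HSC, where the count was 0, it was 1 with the replicate block, with genes above the 25th or the 50th percentile, with the mean of probe sets and with the 2 arrays of lowest weight left out together, 2 with trended robust moderation and with array weights, and 0 to 4 when each array was left out. The member was Serpini1, joined by Dpp10 where there were 2, and Serpinb5 with both arrays out (limma adjusted p = 0.0391). The shares of all genes that passed under these alternatives were not counted, so the counts are no result about the members. Serpini1 passed in 9 of 23 alternatives, with limma adjusted p-values of 0.0416 to 0.132, and its difference lay between 0.86 and 1.25. With the replicate block its limma adjusted p was 0.0469. Same-numbered arrays did not deviate together over all genes (correlations of -0.085 to 0.104). With so few arrays a group this cannot tell whether the numbers pair the samples, and the main model treated them as unpaired. The count of brighter members was 10 with any array left out, 6 with the median of the genes tested as the level and 14 by the highest group mean.

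Of 38 differences of named members, 26 kept their sign in every alternative run. For the other 12 the cause of the turn was not tested. With both arrays out, Prss56 in HSC was -0.008, Prss53 in MPP -0.0475 (-0.0028 with array weights), and between the controls Cst3 was -0.14, Ctso 0.18 and Dpp3 0.18. Between the controls, repeated quantile normalisation gave -0.10 for Cst3 and 0.0752 for Dpp3, and array weights -0.0123 for Cst3. Median centring gave 0.0043 for Prss41 in MPP. Leaving out each array gave, in HSC, -0.0375 to 0.26 for Prss56, -0.53 to 0.31 for Prss57 and -0.18 to 0.0245 for Cst3. In MPP it gave -0.13 to 0.0466 for Prss41, -0.0833 to 0.14 for Prss53, -0.12 to 0.38 for Dpp3 and -0.60 to 0.27 for Ctso. Between the controls it gave -0.0904 to 0.12 for Cst3, -0.52 to 0.20 for Ctso and -0.23 to 0.26 for Dpp3. For the MPP effect minus the HSC effect it gave -0.72 to 0.16 for Ctso and -0.63 to 0.20 for Prss57.

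Where a filter or rule removed a gene, or a fit held only the arrays of a single comparison, that result was not run there. Most members lay under the array median, where a real change can be hidden by background signal, so a difference near 0 there says little. Whether near-identical family members share probes was not tested.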

Other observations

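Some marker genes of other cell types passed the test in the model that gave the protease values. In Erg -/- MPP the pre-B cell genes Vpreb1 and Igll1 fell by 4.75 and by 1.88 on the log2 scale (limma adjusted p = 0.00326 and 0.000441), and Nkg7, a granule protein gene of cytotoxic lymphocytes, fell by 3.05 (limma adjusted p = 0.0274). Of the 6 measured T and NK cell markers, Nkg7 alone passed there, and their median difference was -0.0066. In Erg +/- HSC, Sparc, a matrix protein gene of stromal cells, fell by 2.08 (limma adjusted p = 0.0401).

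Between the controls, MPP minus HSC was -4.30 for Mmrn1, -3.61 for Eng and -3.37 for Tgm2. These HSC-associated genes had limma adjusted p-values of 2.12e-07, 2.12e-07 and 2.81e-07. Of the 6 measured genes of that list, 5 were lower in MPP and passed, and 1 was higher by 0.53 without overlap and did not pass. Flt3, a receptor gene of multipotent progenitors, was higher by 2.57 (limma adjusted p = 0.000242). Flt3 alone passed among the 4 measured genes of the MPP and early lymphoid list. Of these 4, 3 were higher and 1 lower, with a median difference of 0.64.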
